A study of Mus musculus with 33 samples.

Results

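The Dlk1-Dio3 imprinted locus on mouse chromosome 12 was followed through reprogramming of fibroblasts. Its members were chosen by name: the protein-coding genes Begain, Dlk1, Rtl1 and Dio3 and the long noncoding RNAs Meg3, Rian and Mirg, 7 genes in all. The count files list 37583 gene IDs. Of the 7 members, 5 were matched to an ID with counts and are described here, and the levels of Rian and Mirg themselves were not analysed here. All 5 passed the filter on low counts and were among the 17326 genes tested.

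Poly-A RNA was sequenced from 33 libraries in 11 groups of 3. The cells were of strain 129SV/Jae/C57BL6J. Reprogramming took place in embryonic stem cell medium with dox and AA (both as the labels abbreviate them), and mouse embryonic fibroblasts (MEFs) were kept in MEF medium. The groups were SSEA1pos and SSEA1neg cells of days 3, 6, 9 and 12, SSEA1pos and SSEA1neg cells of the induced pluripotent stem (iPS) stage, and MEFs. SSEA1 is a sugar epitope on the surface of mouse pluripotent stem cells, and cells were separated on it by flow cytometry after staining. The reprogramming factors, the way they were delivered and whether an iPS library came from one clone are not given in the sources used here. The labels do not tell whether the replicates of a group were grown apart or taken from different animals. The p-values therefore reflect only how much these libraries vary, which may be technical.

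Imprinted genes are expressed mainly from the copy inherited from one parent. In this locus Dlk1, Rtl1 and Dio3 are expressed from the paternal chromosome, and Meg3 (also called Gtl2), Rian, Mirg and many small nucleolar RNAs and microRNAs from the maternal one, under an intergenic region that is methylated on the paternal copy. In mouse iPS cells, silencing of the maternal RNAs is known from lines that contribute poorly to embryos. The counts used here do not separate the parental copies.

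Reads counted in genes ran from 8.93 to 41.69 M per library, with a median of 23.15 M. CPM are counts scaled to a common library total after TMM normalisation. The limit that a count of 0 allows, 3 counts, lay at 0.072 to 0.336 CPM over the libraries and covers counting error only. Fibroblast markers (10 of 10 with a read) had a mean log2(CPM + 1) of 2.13 to 3.76 in iPS-stage SSEA1pos libraries and 11.0 to 11.15 in MEFs. Pluripotency markers had 8.55 to 8.9 in iPS-stage SSEA1pos libraries and 0.19 to 0.49 in MEFs, where 9 of 10 had a read and Dppa4 had none. The iPS-stage SSEA1neg libraries differed from one another, with pluripotency markers at 3.92, 5.2 and 7.59 in replicates 1, 2 and 3. Replicate 1 libraries stood apart from replicates 2 and 3 in several members, as described gene by gene. Results were therefore also computed without replicate 1 in any group, a setting chosen after seeing the data. Calls gained or kept in that setting, and their p-values, are descriptions only, since the libraries were left out on the members' own values.

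The 300 bases around the starts of 3 members are shown first: Meg3, the long maternal RNA measured, and Dlk1 and Dio3, the paternally expressed genes on either side of it. They are RefSeq sequences of build GRCm38.p6, plus strand, 5′ to 3′, with each CG dinucleotide, the site of DNA methylation, in capitals. Where a gene had several annotated starts, the most upstream window was used.
Meg3, chr12:109540746-109541045: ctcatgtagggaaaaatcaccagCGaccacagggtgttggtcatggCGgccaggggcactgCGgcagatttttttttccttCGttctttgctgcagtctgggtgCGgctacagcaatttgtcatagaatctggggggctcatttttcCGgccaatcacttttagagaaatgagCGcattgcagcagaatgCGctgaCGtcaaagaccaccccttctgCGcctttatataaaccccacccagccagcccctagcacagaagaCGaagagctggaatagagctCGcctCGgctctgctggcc
Dlk1, chr12:109452573-109452872: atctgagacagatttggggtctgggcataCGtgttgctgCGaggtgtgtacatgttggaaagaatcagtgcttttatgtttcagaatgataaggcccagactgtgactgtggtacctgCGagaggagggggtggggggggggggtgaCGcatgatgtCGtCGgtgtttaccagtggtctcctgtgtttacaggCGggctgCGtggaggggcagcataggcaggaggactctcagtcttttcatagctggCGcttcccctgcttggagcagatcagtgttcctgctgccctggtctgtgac
Dio3, chr12:110278980-110279279: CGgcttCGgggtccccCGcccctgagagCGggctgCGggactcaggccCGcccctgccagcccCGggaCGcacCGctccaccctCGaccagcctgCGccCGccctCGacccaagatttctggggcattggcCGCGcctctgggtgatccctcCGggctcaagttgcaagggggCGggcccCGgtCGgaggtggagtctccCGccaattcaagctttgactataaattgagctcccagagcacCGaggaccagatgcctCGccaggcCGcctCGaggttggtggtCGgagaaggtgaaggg

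The Meg3 window held 13 CG, the Dlk1 window 9 and the Dio3 window 25, against a median of 7 in 32851 mouse promoter windows of this length. The Dio3 window was also the richest of the 3 in G and C, at 69.0% against 53.7% for Meg3 and 55.7% for Dlk1. The letters TGCCGC, the hexamer bound by the imprint-keeping protein ZFP57, were searched on both strands and found in the Meg3 window and in 11.6% of all windows, and not in the Dlk1 or Dio3 window. The palindrome TGACGTCA, the cyclic AMP response element, was added to the search after the sequence was seen; it was in the Meg3 window and in 1.79% of all windows. A match describes these letters only, and no binding or methylation was measured.

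Begain, Dlk1, Meg3, Rtl1 and Dio3 did not move as one group. Calls required an adjusted p below 0.05 (edgeR's quasi-likelihood test, Benjamini-Hochberg over all 17326 genes) together with a change of 2-fold or more, and "rose" and "fell" are used of called members only. Changes are log2 fold changes ± standard error. In day 3 SSEA1neg cells against MEFs 5 of 5 members fell, where 14.9% of all genes tested were called lower. In iPS-stage SSEA1pos cells 3 of 5 members fell against MEFs (Dlk1, Meg3 and Rtl1), where 22.5% of all genes were called lower. All comparisons with MEFs share the same 3 MEF libraries.

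**Figure D1:**
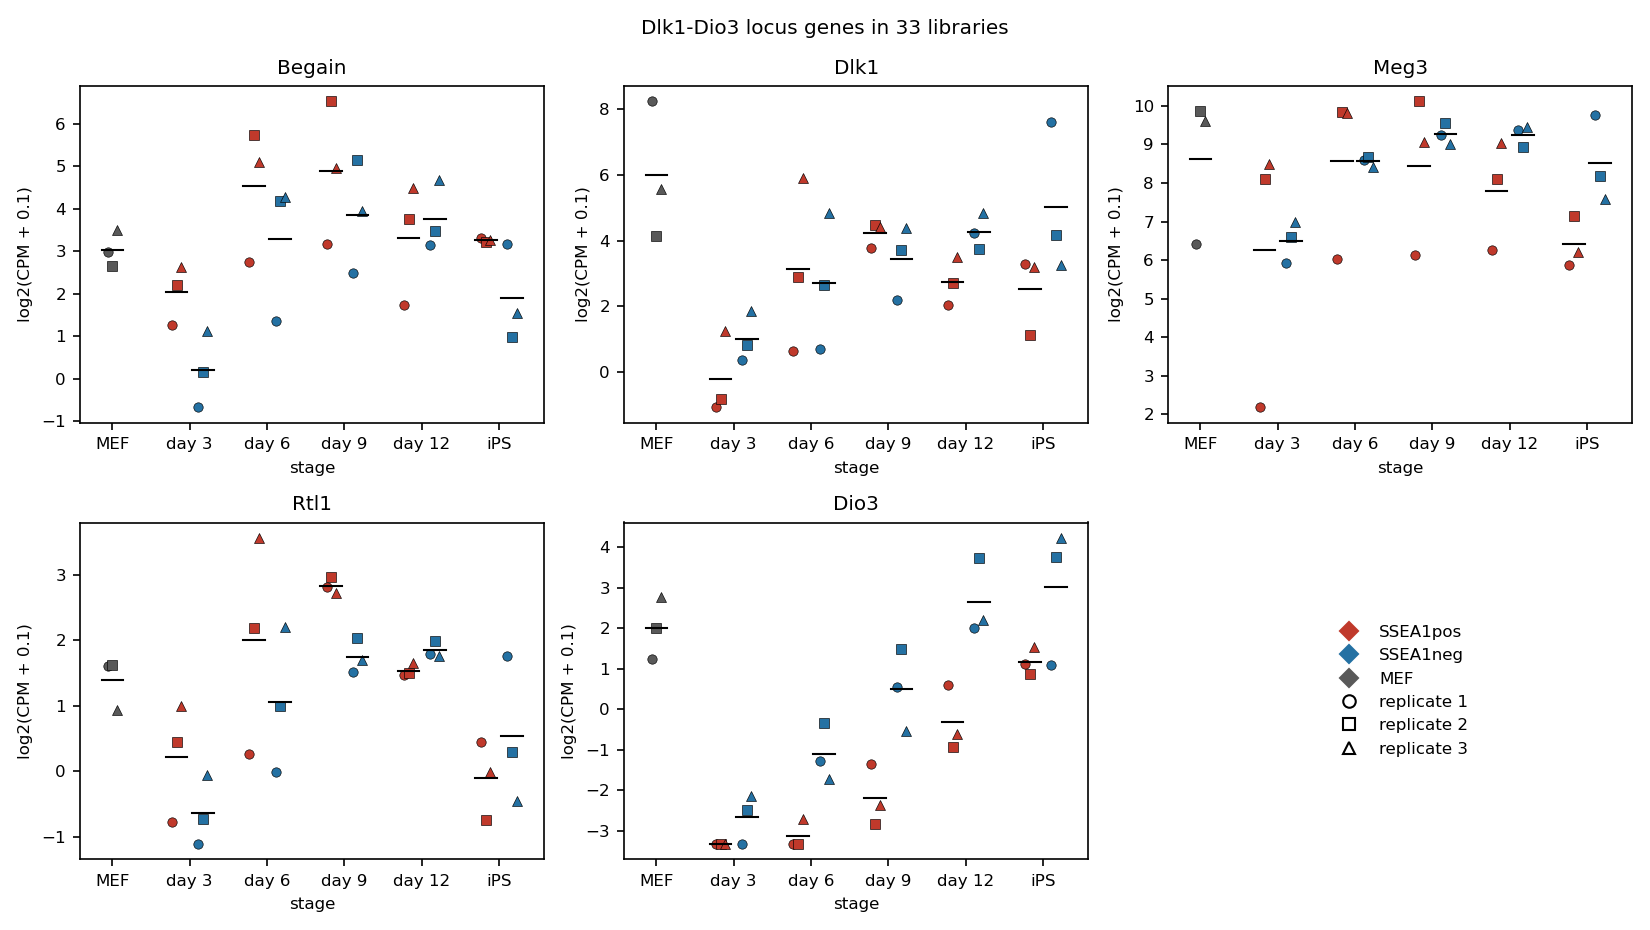
Level of each member in every library on a log2 scale of CPM + 0.1 (y axis) by stage (x axis), with SSEA1pos in red left of SSEA1neg in blue at each stage and MEFs in grey. Marker shape gives the replicate number and the bar the mean of 3 log2 values; replicate 1 of SSEA1pos cells is lowest for Meg3 at each of the 5 stages, and Dio3 is at 0 reads in all 3 day 3 SSEA1pos libraries.

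Meg3 (ENSMUSG00000021268), the maternal noncoding RNA, was divided by replicate number in SSEA1pos cells and MEFs, with replicate 1 lowest throughout. In MEFs it had 84.8, 933 and 781 CPM in replicates 1, 2 and 3. At day 3 it had 4.45, 274 and 357 CPM in SSEA1pos cells, against 60.3, 97.2 and 126 CPM in SSEA1neg cells. At day 6 it had 65.7, 909 and 906 CPM in SSEA1pos cells, against 390, 406 and 342 CPM in SSEA1neg cells. In the SSEA1pos fraction replicate 1 was far below the other two, and in the SSEA1neg fraction of day 6 the libraries lay close together.

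At day 9 Meg3 had 70.5, 1110 and 531 CPM in SSEA1pos cells, against 603, 755 and 512 CPM in SSEA1neg cells. At day 12 it had 76.2, 275 and 523 CPM in SSEA1pos cells, against 659, 491 and 698 CPM in SSEA1neg cells. The iPS stage had 58.3, 142 and 73.6 CPM in SSEA1pos cells, against 873, 290 and 192 CPM in SSEA1neg cells. Replicate 1 was the lowest SSEA1pos library at 5 of 5 stages, whereas in SSEA1neg cells it was the lowest at 1 of 5 stages (day 3). At the iPS stage every SSEA1pos library lay below every SSEA1neg library.

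Within replicate 1 the log2 ratio of Meg3 in SSEA1pos to SSEA1neg cells (0.1 CPM added to each) was negative at every stage, at -3.73, -2.57, -3.09, -3.11 and -3.9 for days 3, 6, 9, 12 and the iPS stage. In replicate 2 the same ratios were 1.5, 1.16, 0.56, -0.84 and -1.03. In replicate 3 they were 1.5, 1.4, 0.05, -0.42 and -1.38. Replicates 2 and 3 thus had more Meg3 in SSEA1pos than in SSEA1neg cells at days 3, 6 and 9 and less at day 12 and the iPS stage, and replicate 1 had less throughout.

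No sort difference of Meg3 was called in all 33 libraries: the day 3 change was 1.16 ± 1.01 (edgeR adjusted p = 0.5), the day 6 change 0.72 ± 1 (adjusted p = 0.63) and the iPS-stage change -2.31 ± 1.04 (adjusted p = 0.065). At day 9 it was -0.12 ± 0.99 (adjusted p = 0.94) and at day 12 -1.08 ± 1.01 (adjusted p = 0.38). Without replicate 1 in any group, Meg3 was called higher in SSEA1pos cells at day 3 (1.5, edgeR adjusted p = 0.026) and day 6 (1.28, adjusted p = 0.028). It was called lower at the iPS stage (-1.16, adjusted p = 0.026). That setting leaves out the libraries whose Meg3 was seen to stand apart, so these calls cannot test the sort difference. The iPS-stage difference also passed with DESeq2's Wald test (-2.33, adjusted p = 0.043) and without the iPS-stage SSEA1neg replicate 3 (-2.67, adjusted p = 0.045). Without SSEA1neg replicate 1, the library with 873 CPM, it was -1.47 (adjusted p = 0.28). In these bulk libraries, fewer cells of a type and less RNA per cell cannot be told apart.

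Against MEFs, replicate 1 and the other replicates went the same way in SSEA1neg cells at day 3, with log2 ratios of -0.49, -3.26 and -2.63 in replicates 1, 2 and 3, and opposite ways from day 6 on. Within replicate 1 the log2 ratio of SSEA1neg cells to MEFs was 2.2 at day 6, 2.83 at day 9, 2.96 at day 12 and 3.36 at the iPS stage. In replicates 2 and 3 the same ratios lay between -2.03 (replicate 3, iPS stage) and -0.16 (replicate 3, day 12). MEF replicate 1 was low in Meg3 and in macrophage markers (mean log2(CPM + 1) of 0.72, against 4.09 and 2.03 in MEF replicates 2 and 3), while fibroblast markers were alike (11.06, 11.0 and 11.15). In day 3 SSEA1pos cells the replicates had macrophage markers at 0.61, 1.06 and 0.7, with all 5 markers read in the group. Among SSEA1neg libraries replicate 2 was highest in macrophage markers at every stage, but highest in Meg3 only at days 6 and 9. At the iPS stage SSEA1neg replicate 1 had these markers at 1.57 and Meg3 at 873 CPM, against 5.27 and 290 CPM in replicate 2. The part of cells with these markers in the Meg3 values was not tested.

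Meg3 fell in iPS-stage SSEA1pos cells against MEFs (-2.71 ± 1.06, edgeR adjusted p = 0.028), with means of 91.3 ± 44.6 and 600 ± 452 CPM (SD, n = 3 each). The groups overlap through MEF replicate 1. Without replicate 1 in any group the change was -2.99 (edgeR adjusted p = 2.8e-05). That setting leaves out the overlapping library on its own Meg3 value, so its smaller p adds no support. The call was lost without MEF replicate 2 (-2.29, adjusted p = 0.086) or 3 (-2.51, 0.063), without iPS-stage SSEA1pos replicate 1 (-2.56, 0.084) or 3 (-2.66, 0.075), and without the low-count filter (-2.77, 0.055). With replicate 1 left out of every group, Meg3 was also called lower than in MEFs in SSEA1pos cells of day 3 (-1.45, adjusted p = 0.0087) and day 12 (-1.11, adjusted p = 0.027) and in SSEA1neg cells of day 6 (-1.2, adjusted p = 0.025). Meg3 also fell in day 3 SSEA1neg cells against MEFs (-2.66 ± 1.06, adjusted p = 0.043), a call that held without MEF replicate 1 and was lost on leaving out any one of the other 5 libraries (adjusted p = 0.074 to 0.13) or the low-count filter (0.09). In iPS-stage SSEA1pos cells Meg3 was also below its day 9 SSEA1pos level (-2.65 ± 1.06, adjusted p = 0.047), in a comparison added after seeing the data in which 13.8% of all genes were called lower.

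**Figure D2:**
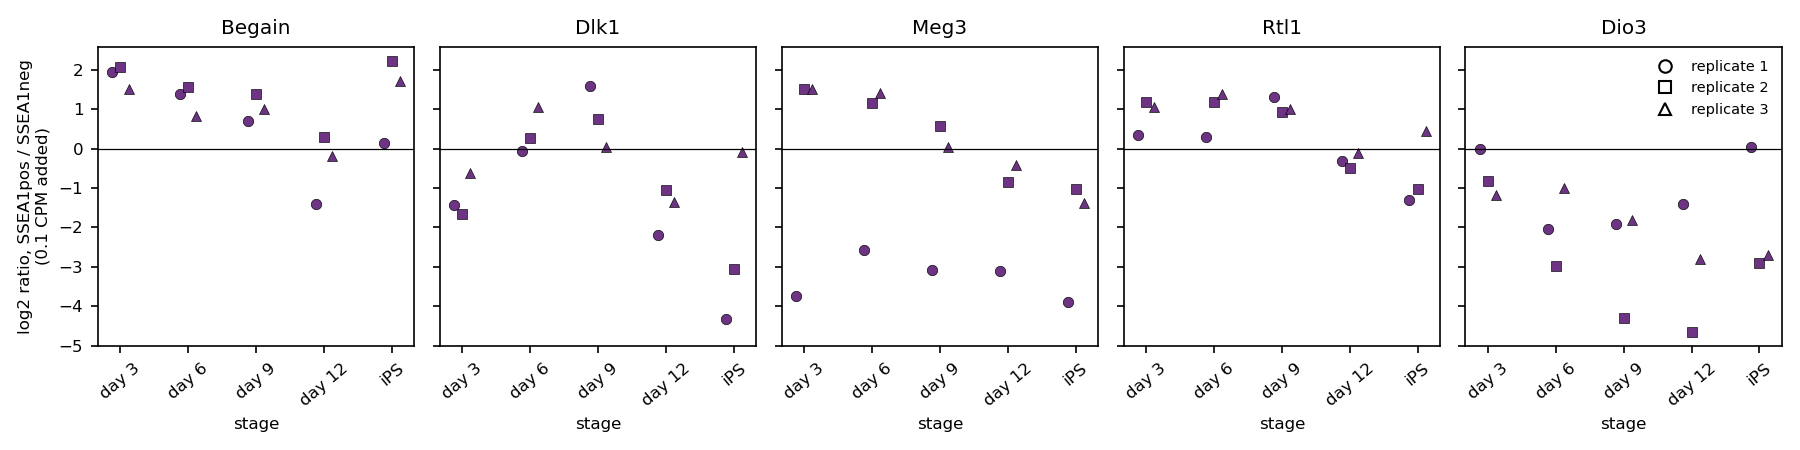
Log2 ratio of SSEA1pos to SSEA1neg cells within each replicate (y axis, 0.1 CPM added) by stage (x axis), 1 panel per member and 1 marker shape per replicate. For Meg3 the replicate 1 points lie between -3.9 and -2.57 at every stage while replicates 2 and 3 cross 0 between day 9 and day 12, and for Dio3 no point at days 6, 9 or 12 is above 0.

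The small RNA genes inside Rian and Mirg gave the nearest reading of those stretches. The reference annotation places 77 further genes with an ID between Begain and Dio3, 55 for microRNAs and 22 for small nucleolar RNAs. Of these 51 had a read, 2256 reads in all. Libraries made from poly-A RNA hold few mature small RNAs. The 16 genes inside Rian, the host of C/D small nucleolar RNAs, took 1666 of these reads, and the 13 microRNA genes inside Mirg took 528. Of the reads inside Mirg, 274 fell on the single gene Mir3072. Another 43 fell on Gm24321, annotated on the minus strand, opposite to Mirg. Reads here may come from the long host RNA as well as from the small RNAs themselves.

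The reads inside Rian were lowest in day 3 SSEA1pos replicate 1, as Meg3 was, while the other low libraries matched Meg3 only in part. In MEFs they summed to 1.22, 5.11 and 3.06 CPM in replicates 1, 2 and 3. At day 3 they had 0.15, 1.99 and 2.92 CPM in SSEA1pos cells, against 0.567, 1.36 and 1.57 in SSEA1neg cells. At the iPS stage they had 0.797, 1.0 and 0.367 CPM in SSEA1pos cells, against 3.84, 2.63 and 0.41 in SSEA1neg cells. The iPS-stage SSEA1neg replicate 3, with 11 reads, was among the low libraries inside Rian, though its Meg3 (192 CPM) lay above all 3 SSEA1pos libraries of that stage. It was also the SSEA1neg library with the highest pluripotency markers at that stage; their part was not tested.

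Reads inside Mirg averaged 0.272 ± 0.205 CPM in iPS-stage SSEA1pos cells, 0.723 ± 0.384 in iPS-stage SSEA1neg cells and 1.3 ± 0.974 in MEFs (SD, n = 3 each). Over the 33 libraries the correlation with Meg3 on the log2 scale was r = 0.9 for the Rian reads and r = 0.89 for the Mirg reads. These are descriptions over libraries that share groups, depth and counting.

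**Figure D3:**
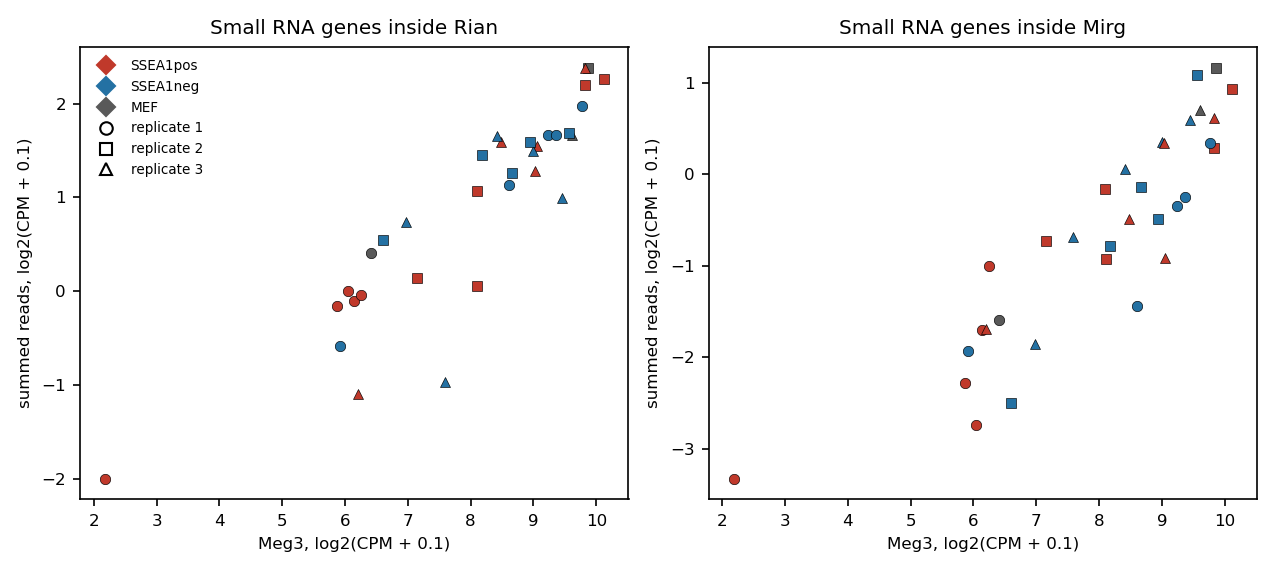
Summed reads of the small RNA genes inside Rian (left) and Mirg (right) against Meg3, each point 1 of 33 libraries and both axes log2(CPM + 0.1), with SSEA1pos in red, SSEA1neg in blue and MEFs in grey and the marker shape giving the replicate. The points rise together, with scatter where reads are few, and day 3 SSEA1pos replicate 1, at 4.45 CPM of Meg3 and 0.15 CPM inside Rian, is lowest in Meg3 and in the Rian sum.

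Dlk1 (ENSMUSG00000040856), a transmembrane protein related to the Notch ligands that restrains adipocyte differentiation, had its highest mean in MEFs, through replicate 1, and its lowest means at day 3. In MEFs it had 302, 17.4 and 47.6 CPM in replicates 1, 2 and 3. At day 3 it had 0.374, 0.464 and 2.25 CPM in SSEA1pos cells, against 1.18, 1.67 and 3.48 CPM in SSEA1neg cells. At day 6 it had 1.45, 7.32 and 59.9 CPM in SSEA1pos cells, against 1.51, 6.1 and 28.6 CPM in SSEA1neg cells. MEF replicate 1, which was lowest in Meg3, was the highest library of all in Dlk1, and at day 3 every library of both fractions lay below every MEF library.

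At day 9 Dlk1 had 13.7, 22 and 21.2 CPM in SSEA1pos cells, against 4.46, 13.1 and 20.9 CPM in SSEA1neg cells. At day 12 it had 3.97, 6.42 and 11.1 CPM in SSEA1pos cells, against 18.6, 13.4 and 28.5 CPM in SSEA1neg cells. The iPS stage had 9.67, 2.06 and 8.97 CPM in SSEA1pos cells, against 195, 17.8 and 9.53 CPM in SSEA1neg cells. The fractions did not overlap at day 12, though the difference was not called (-1.5 ± 1.15, edgeR adjusted p = 0.29), and at the iPS stage the SSEA1neg mean rested on replicate 1.

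Dlk1 fell against MEFs in day 3 cells of both fractions, with a change of -6.9 ± 1.49 in SSEA1pos cells (edgeR adjusted p = 0.00045) and of -5.84 ± 1.38 in SSEA1neg cells (adjusted p = 0.0013). Both calls held on leaving out any one library, with values of -8.2 to -5.09 and of -6.47 to -4.03. In day 3 SSEA1pos cells 16.7% of all genes were called lower than in MEFs, and Dlk1 and Dio3 were the 2 of 5 members that fell. Dlk1 also fell in SSEA1pos cells of day 12 (-4.1 ± 1.27, adjusted p = 0.0071) and of the iPS stage (-4.15 ± 1.27, adjusted p = 0.0061). At day 12 it was 1 of 2 members called, with Dio3, where 20.2% of all genes were called lower. Those last calls were lost without MEF replicate 1, at -2.24 (adjusted p = 0.12) for day 12 and -2.28 (adjusted p = 0.1) for the iPS stage. Without replicate 1 in any group they were -1.89 (adjusted p = 0.11) for day 12 and -2.55 (adjusted p = 0.037) for the iPS stage. At day 6 the SSEA1pos change of -2.42 ± 1.17 was not called (adjusted p = 0.091), and with the replicate number as a block it was (-2.89, adjusted p = 0.046). It was -0.55 (adjusted p = 0.75) without MEF replicate 1 and 0.05 (adjusted p = 0.99) without replicate 1 in any group. At day 9 the SSEA1pos change was -2.69 (adjusted p = 0.058; -2.76 and 0.032 with DESeq2's Wald test). It was -0.83 (adjusted p = 0.59) without MEF replicate 1 and -0.59 (adjusted p = 0.62) without replicate 1 in any group.

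In SSEA1neg cells Dlk1 fell at day 6 (-3.34 ± 1.22, edgeR adjusted p = 0.03), as did Dio3, where 12.4% of all genes were called lower. It was the 1 member that fell at day 9 (-3.27 ± 1.22, adjusted p = 0.035), where 11.6% were called lower. Without MEF replicate 1 these were -1.54 (adjusted p = 0.34) and -1.43 (adjusted p = 0.38), and without replicate 1 in any group -0.9 (adjusted p = 0.48) and -0.94 (adjusted p = 0.47). They were also lost without the low-count filter (0.067 and 0.076), without SSEA1neg replicate 1 or 2 at day 6 (0.099 and 0.1), and without any one SSEA1neg library at day 9 (0.056 to 0.12). Between the fractions Dlk1 was called once, lower in SSEA1pos cells at the iPS stage (-3.42 ± 1.23, adjusted p = 0.022). Without SSEA1neg replicate 1 that value was -1.06 (adjusted p = 0.46), and without SSEA1pos replicate 2 it was -3.07 (adjusted p = 0.079). Without replicate 1 in any group it was -1.3 (adjusted p = 0.27). SSEA1neg replicate 1 was also the highest of the 3 in neural markers (3.54, against 1.72 and 1.46) and muscle markers (2.71, against 1.79 and 0.77) on the mean log2(CPM + 1) scale, and their part was not tested.

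Meg3 and Dlk1, read from opposite parental copies, gave very different ratios between libraries of the same group. At the iPS stage the ratio of Meg3 to Dlk1 CPM was 6.03, 68.9 and 8.2 in SSEA1pos cells, against 4.48, 16.3 and 20.1 in SSEA1neg cells. In MEFs it was 0.281 in replicate 1, 53.7 in replicate 2 and 16.4 in replicate 3. MEF replicate 1 was the one library of 33 with less Meg3 than Dlk1. Levels of different genes are compared per kb of annotated exon. Meg3 averaged 5.05 CPM per kb in iPS-stage SSEA1pos cells and 33.2 CPM per kb in MEFs, and Dlk1 1.22 and 21.6 CPM per kb in the same groups. Begain (2.16 and 1.89 CPM per kb), Dio3 (1.08 and 2.11) and Rtl1 (0.14 and 0.406) were below Meg3 in both.

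Rtl1 (ENSMUSG00000085925), a retrotransposon-derived gene needed for placental capillaries, had its highest mean in SSEA1pos cells of day 9. In MEFs it had 2.96, 2.98 and 1.81 CPM. At day 3 it had 0.486, 1.26 and 1.89 CPM in SSEA1pos cells, against 0.365, 0.504 and 0.858 CPM in SSEA1neg cells. At day 6 it had 1.1, 4.43 and 11.7 CPM in SSEA1pos cells, against 0.888, 1.9 and 4.48 CPM in SSEA1neg cells. The order of replicates 1, 2 and 3 was the same in all 4 of these sorted groups, and the fractions overlapped at both days.

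At day 9 Rtl1 had 6.92, 7.66 and 6.46 CPM in SSEA1pos cells, against 2.75, 3.99 and 3.16 CPM in SSEA1neg cells. At day 12 it had 2.66, 2.72 and 3.03 CPM in SSEA1pos cells, against 3.35, 3.87 and 3.3 CPM in SSEA1neg cells. The iPS stage had 1.27, 0.501 and 0.892 CPM in SSEA1pos cells, against 3.29, 1.13 and 0.633 CPM in SSEA1neg cells. The fractions did not overlap at day 9, with SSEA1pos higher, or at day 12, with SSEA1pos lower, and neither sort difference was called (1.09 ± 0.63, edgeR adjusted p = 0.18, and -0.32 ± 0.63, adjusted p = 0.69). The change of the sort difference from day 9 to day 12 was added after seeing the data, and 0 of 5 members were called in it (edgeR, 0 of 5 at an unadjusted p under 0.05), where 0.0577% of all genes were called.

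Rtl1 fell against MEFs in iPS-stage SSEA1pos cells (-1.54 ± 0.67, edgeR adjusted p = 0.048) and in day 3 SSEA1neg cells (-2.15 ± 0.68, adjusted p = 0.012). The iPS-stage call was lost without MEF replicate 1 or 2 (adjusted p = 0.097 each), without SSEA1pos replicate 2 (-1.33, 0.14) or 3 (-1.61, 0.084) and without the low-count filter (0.052). The day 3 call was lost without SSEA1neg replicate 1 (-1.95, adjusted p = 0.051). With replicate 1 left out of every group, Rtl1 was called higher than in MEFs in SSEA1pos cells of day 6 (1.74, adjusted p = 0.016) and day 9 (1.54, adjusted p = 0.027), which were not called in all libraries (1.14, 0.15, and 1.43, 0.066). From day 9 to the iPS stage, in the added comparison of SSEA1pos cells, Rtl1 fell (-2.97 ± 0.69, edgeR adjusted p = 0.0011), and the groups did not overlap. The day 9 libraries lay above and the iPS-stage libraries below all MEF libraries, so the direction was known before this test.

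Rtl1 lies opposite to maternal microRNA hairpins whose transcripts are complementary to its message and can direct its cleavage. These sequences are shown because the counts cannot separate the strands here. They are RefSeq mature sequences (build GRCm38.p6), 5′ to 3′, with the seed (bases 2 to 8) in capitals; their genes lie in order along the plus strand of chromosome 12 within Rtl1, which is read from the minus strand.
mmu-miR-431-5p, chr12:109590459-109590479: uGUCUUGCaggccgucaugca
mmu-miR-433-3p, chr12:109591781-109591802: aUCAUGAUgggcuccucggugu
mmu-miR-127-3p, chr12:109592888-109592909: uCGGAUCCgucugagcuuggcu
mmu-miR-434-3p, chr12:109594565-109594586: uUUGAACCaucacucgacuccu

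None of these 4 shared a seed with another. The annotation places 6 microRNA genes with an ID inside Rtl1, and all 6 had 0 reads in the 33 libraries. Reads that fall on both a microRNA gene and Rtl1 can be counted as ambiguous when strand is not used, so these zeros give no level for the microRNAs.

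Dio3 (ENSMUSG00000075707), the deiodinase that inactivates thyroid hormone, lies at the far end of the locus and was the member with the most called differences between the fractions. In MEFs it had 2.27, 3.9 and 6.68 CPM. At day 3 it had 0 reads in all 3 SSEA1pos libraries, against 0, 0.0775 and 0.126 CPM in SSEA1neg cells. At day 6 it had 0, 0 and 0.0528 CPM in SSEA1pos cells, a single read, against 0.309, 0.687 and 0.205 CPM in SSEA1neg cells. Both fractions lay below every MEF library at days 3 and 6, and SSEA1pos lay below every SSEA1neg library at day 6.

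At day 9 Dio3 had 0.29, 0.041 and 0.0957 CPM in SSEA1pos cells, against 1.37, 2.7 and 0.588 CPM in SSEA1neg cells. At day 12 it had 1.42, 0.425 and 0.56 CPM in SSEA1pos cells, against 3.9, 13.2 and 4.48 CPM in SSEA1neg cells. The iPS stage had 2.07, 1.73 and 2.78 CPM in SSEA1pos cells, against 2.02, 13.5 and 18.7 CPM in SSEA1neg cells. SSEA1pos libraries lay below all SSEA1neg libraries at days 9 and 12, and at the iPS stage the groups overlapped through SSEA1neg replicate 1.

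Dio3 had a lower mean in SSEA1pos than in SSEA1neg cells at all 5 stages, and the difference was called at 4 of them. It was the 1 member of 5 called at day 6, where 10.1% of all genes were called lower, at 21.8-fold lower in SSEA1pos cells (95% exact interval 3.64 to 887, counting error only; edgeR adjusted p = 0.019). The change was -3.41 ± 0.9 at day 9 (adjusted p = 0.0046) and -3.15 ± 0.8 at day 12 (adjusted p = 0.0024). At those stages it was again the 1 member called, where 13.7% and 18% of all genes were called lower. At the iPS stage the change was -2.37 ± 0.77 (adjusted p = 0.013), where 21.3% of all genes were called lower and Dlk1 was the other member. The day 9 and day 12 calls held on leaving out any one library, at -4.45 to -2.81 and -3.86 to -2.37. The day 6 call was lost without SSEA1neg replicate 2 (adjusted p = 0.082), SSEA1pos replicate 1 (0.072) or SSEA1pos replicate 2 (0.07), and the iPS-stage call without SSEA1neg replicate 3 (-1.87, adjusted p = 0.05 after rounding). Other cell type markers differed between the fractions as well. Fibroblast markers had a mean log2(CPM + 1) of 4.63 to 5.37 in SSEA1pos cells and 7.85 to 8.67 in SSEA1neg cells at day 6, and of 3.72 to 4.53 in SSEA1pos cells and 7.85 to 8.79 in SSEA1neg cells at day 12. SSEA1neg replicate 2, the highest in Dio3 at days 6, 9 and 12, was also the highest of its group in macrophage markers, at 3.84, 4.22 and 4.43, against 0.6 to 1.72 over the SSEA1pos libraries of those days, where Ptprc had no read at day 6. At the iPS stage SSEA1neg replicate 3 was highest in Dio3 (18.7 CPM) with macrophage markers at 1.43, against 13.5 CPM and 5.27 in replicate 2. In MEFs replicate 3 was highest in Dio3 (6.68 CPM, macrophage markers at 2.03). MEF replicate 2 was highest in those markers (4.09, Dio3 at 3.9 CPM). The part of these markers in the Dio3 differences was not tested.

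Against MEFs, Dio3 was at least 27.7-fold lower in day 3 SSEA1pos cells, taking 3 counts per library as the floor (0.155 CPM on average; edgeR adjusted p = 8.7e-06). In day 6 SSEA1pos cells it was 212-fold lower (95% exact interval 37.4 to 8430, counting error only; adjusted p = 1.8e-05), the 1 member called there, where 16.6% of all genes were called lower. It fell at day 9, with a change of -4.84 ± 0.93 (adjusted p = 0.00014), and at day 12, with -2.38 ± 0.79 (adjusted p = 0.012), the last call being lost without MEF replicate 3 (-1.98, adjusted p = 0.051). In SSEA1neg cells it fell at day 3 (-5.74 ± 0.98, adjusted p = 5.4e-05) and at day 6 (-3.41 ± 0.84, adjusted p = 0.0023), and both held on leaving out any one library. At the iPS stage Dio3 was not called against MEFs in either fraction (-0.95 ± 0.76, adjusted p = 0.28 in SSEA1pos cells; 1.43 ± 0.75, adjusted p = 0.14 in SSEA1neg cells, 1.9 and 0.045 without SSEA1neg replicate 1). In the added comparison of iPS-stage with day 9 SSEA1pos cells Dio3 rose by 3.89 ± 0.91 (edgeR adjusted p = 0.0014), where 16.2% of all genes were called higher. Begain (-2.2 ± 0.87, adjusted p = 0.045), Meg3 (0.047) and Rtl1 (0.0011) fell, where 13.8% were called lower. For Begain and Meg3 the groups overlapped, and Begain in replicate 1 was at 8.87 CPM at day 9 and 9.88 CPM at the iPS stage. The added comparisons were chosen on values already seen, so their calls are descriptions only, and they were not repeated with libraries left out.

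Begain (ENSMUSG00000040867), a neuronal scaffold protein gene next to Dlk1, was higher in SSEA1pos than in SSEA1neg cells within every replicate at days 3, 6 and 9. In MEFs it had 7.73, 6.14 and 11.1 CPM. At day 3 it had 2.28, 4.51 and 6.09 CPM in SSEA1pos cells, against 0.527, 1.01 and 2.07 CPM in SSEA1neg cells. At day 9 it had 8.87, 91.9 and 30.7 CPM in SSEA1pos cells, against 5.46, 35.5 and 15.3 CPM in SSEA1neg cells. At day 3 the fractions did not overlap, and at day 9 they did, replicate 1 being the lowest library in both fractions.

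At day 6 Begain had 6.58, 53.3 and 34.2 CPM in SSEA1pos cells, against 2.47, 18.1 and 19.3 CPM in SSEA1neg cells. At day 12 it had 3.2, 13.4 and 22.2 CPM in SSEA1pos cells, against 8.69, 11 and 25.3 CPM in SSEA1neg cells. The iPS stage had 9.88, 9.19 and 9.49 CPM in SSEA1pos cells, against 8.92, 1.88 and 2.83 CPM in SSEA1neg cells. The iPS-stage SSEA1pos libraries were within 1.07-fold of one another, the closest group of any member, and lay above all 3 SSEA1neg libraries.

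No sort difference of Begain was called (edgeR adjusted p = 0.21 at day 3, 1.79 ± 0.91, and 0.3 at the iPS stage, 1.06 ± 0.86). Without replicate 1 in any group the iPS-stage difference was called, at 1.97 (adjusted p = 0.013). Against MEFs Begain rose in day 9 SSEA1pos cells (2.4 ± 0.89, adjusted p = 0.025), where 20.6% of all genes were called higher, and Dio3 fell, where 18% were called lower. That call was lost without SSEA1pos replicate 2 (1.21, adjusted p = 0.27), MEF replicate 1 (2.32, 0.077) or MEF replicate 2 (2.2, 0.093), or without the low-count filter (0.051). When no group had its replicate 1, Begain was also called higher than in MEFs in SSEA1pos cells of day 6 (2.35, adjusted p = 0.0041) and SSEA1neg cells of day 9 (1.57, adjusted p = 0.043). Begain fell in day 3 SSEA1neg cells (-2.75 ± 0.93, adjusted p = 0.018), a call lost without SSEA1neg replicate 1 (-2.44, 0.074) or 2 (-2.63, 0.058).

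**Figure D4:**
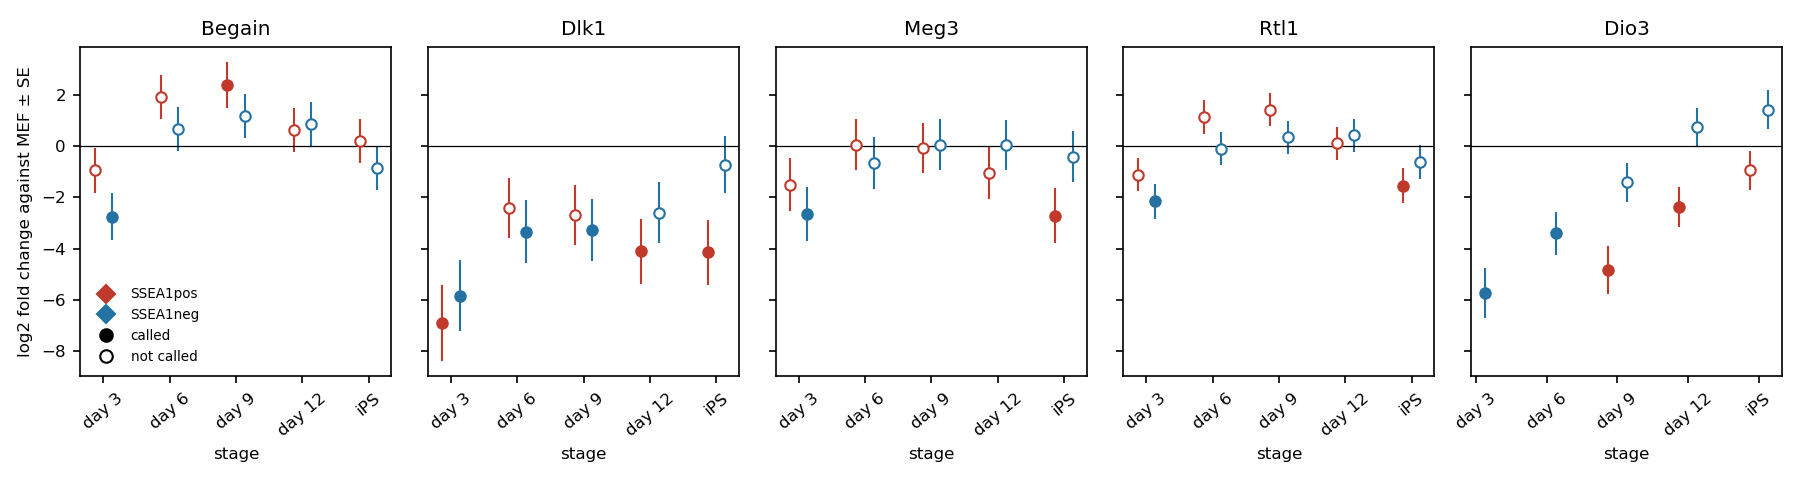
Log2 fold change against MEFs with its standard error (y axis) at each stage (x axis) for SSEA1pos cells (red) and SSEA1neg cells (blue), with filled points for called differences and open points for the others; Dio3 in SSEA1pos cells of days 3 and 6, with 0 and 1 reads, is left out. In day 3 SSEA1neg cells all 5 points are filled and below 0, and at day 12 and the iPS stage no SSEA1neg point is filled.

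After day 3, when all 5 members fell in SSEA1neg cells, fewer were called against MEFs in that fraction: 2 at day 6, 1 at day 9 and none later. At day 12 in SSEA1neg cells 0 of 5 members were called against MEFs by edgeR (1 of 5, Dlk1, at an unadjusted p under 0.05; 0 by DESeq2), where 28.1% of all genes were called in either direction. At the iPS stage it was again 0 of 5 (0 unadjusted, 0 by DESeq2), where 26.8% were called. Dlk1 in day 12 SSEA1neg cells was at -2.6 ± 1.18 against MEFs (edgeR adjusted p = 0.079). It was called without MEF replicate 2 (-3.15, adjusted p = 0.049) and was at -0.74 without MEF replicate 1. A missing call does not show a return to the MEF level. Without replicate 1 in any group, Meg3 (-1.83, adjusted p = 0.0036, against -0.41 in all libraries) and Begain (-1.85, adjusted p = 0.028, against -0.86) were called lower at the iPS stage. The change between the days was computed in a comparison added after seeing the data. In it all 5 members rose in SSEA1neg cells of day 12 against day 3, where 16.3% of all genes were called higher. The comparison starts from a stage at which all 5 members had been seen to fall, so it gives sizes and cannot test a rise. The share over all genes carries no such choice. Dio3 changed most (6.51 ± 0.99, edgeR adjusted p = 6.5e-05), followed by Begain (3.6 ± 0.94, 0.0049), Dlk1 (3.23 ± 1.24, 0.043), Meg3 (2.7 ± 1.06, 0.048) and Rtl1 (2.58 ± 0.68, 0.005). Fibroblast markers in SSEA1neg cells were at 7.85 to 8.79 at day 12 and 7.18 to 8.08 at day 3, and pluripotency markers at 3.09 to 4.55 and 0.16 to 0.31; their part was not tested.

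From day 12 to the iPS stage 0 of 5 members were called in SSEA1pos cells (edgeR; 1 of 5, Rtl1, at an unadjusted p under 0.05; 0 by DESeq2), where 9.49% of all genes were called. In SSEA1neg cells it was 0 of 5 as well (0 unadjusted; 0 by DESeq2), where 7.21% were called. When no group had its replicate 1, Meg3 (-1.89, edgeR adjusted p = 0.0057) and Rtl1 (-2.03, 0.023) were called lower at the iPS stage in SSEA1pos cells. Begain (-2.93, 0.011) and Rtl1 (-2.04, 0.037) were called lower in SSEA1neg cells. The shares of all genes given here are those of all 33 libraries. The sort difference itself did not change between day 12 and the iPS stage by a called amount for any member (edgeR, 0 unadjusted; 0 by DESeq2), where 1.85% of all genes were called. At day 3 no member was called between the fractions (edgeR; 1 of 5, Dio3, at an unadjusted p under 0.05; 0 by DESeq2), where 6.67% of all genes were called.

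Ordered by mean CPM over the 11 groups, neighbouring groups overlapped in all 10 pairs for Dlk1, Meg3, Rtl1 and Dio3 and in 9 of 10 for Begain, so the orders are not resolved step by step. The ends of the orders differed by member in their means, but only the low end of Begain was free of overlap with its neighbour. Meg3 was lowest in iPS-stage SSEA1pos cells (91.3 CPM), Dlk1 and Dio3 in day 3 SSEA1pos cells (1.03 and 0 CPM), and Begain and Rtl1 in day 3 SSEA1neg cells (1.2 and 0.576 CPM). Dlk1 was highest in MEFs (122 CPM), Meg3 in day 6 SSEA1pos cells (627 CPM) and Dio3 in iPS-stage SSEA1neg cells (11.4 CPM). Begain and Rtl1 were highest in day 9 SSEA1pos cells (43.8 and 7.01 CPM). Over replicates 2 and 3 alone, Dlk1 averaged 32.5 CPM in MEFs and 33.6 CPM in day 6 SSEA1pos cells. The median range within a group was 2.18 on the log2 scale for Meg3, 2.23 for Dlk1, 2.25 for Begain, 2.2 for Dio3 and 1.23 for Rtl1.

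Across the 11 group means of log2 CPM, Begain and Rtl1 ran closest (r = 0.88), then Meg3 with Rtl1 (0.77) and with Dlk1 (0.76), and Dlk1 with Dio3 (0.71). Rtl1 and Dio3, both paternally expressed genes, had r = 0.03, and Begain and Dio3 0.04. The Rtl1 counts may hold reads of the maternal transcripts opposite to it, as the file names speak of counting without strand. The tested genes with the pattern most like Meg3 over the same 11 groups were Pcdha11 (r = 0.973), Doc2b (0.968) and Atp8b1 (0.962). For Dlk1 they were Ptgs1 (0.962), Sema3f (0.96) and Gem (0.937), and for Dio3 Pld4 (0.971), Scube2 (0.97) and Exd1 (0.97). Begain was most like Syt5 (0.943) and Rtl1 most like Lgals7 (0.94). The groups share libraries between genes, so these values describe likeness only.

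Genes around the locus and in the members' pathways were counted at the iPS stage, in SSEA1pos cells against MEFs, where 27.9% of all genes were called higher and 22.5% lower. Of 23 regulators of imprints and DNA methylation 13 were higher and 2 lower, with a median log2 change of 1.53, against 0.22 over all genes. Zfp57, the zinc finger protein that keeps imprints, averaged 297 CPM in iPS-stage SSEA1pos cells and 43.9 CPM in MEFs (2.76 ± 0.35, edgeR adjusted p = 2.5e-07). Jarid2 and Suz12 of the Polycomb repressive complex changed by 3.68 ± 0.34 and 1.89 ± 0.24, and the DNA methyltransferase Dnmt3b by 4.33 ± 0.51.

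Of 16 genes flanking the locus 3 were higher and 2 lower, with a median of 0.17. Mok changed by 4.91 ± 0.42, the chaperone gene Hsp90aa1 by 2.69 ± 0.38 and Wdr25 by 1.67 ± 0.26 (edgeR adjusted p of at most 4.2e-06 each), while Rcor1, at -0.97 ± 0.17, was under the 2-fold limit. Of 16 Notch pathway genes, the pathway of Dlk1, 5 were higher and 6 lower, with a median of -0.22, also with Dll3, which had 0 reads in MEFs, set at its bound. The receptor Notch2 (-1.85 ± 0.16) and the ligand Jag1 (-2.72 ± 0.25) were lower and the ligand Jag2 was higher (5.6 ± 0.68), while the target Heyl was at 0.0535 CPM in iPS-stage SSEA1pos cells and 43.4 CPM in MEFs.

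Of 7 tested genes of thyroid hormone handling, the pathway of Dio3, 2 were higher and 4 lower, with a median of -1.29. The receptor Thra changed by -1.74 ± 0.35, Slc7a5 by -1.19 ± 0.29 and the hormone-responsive factor Klf9 by 1.36 ± 0.3. Of 10 tested relatives of Rtl1, 3 were higher and 7 lower, with a median of -2.7. Rtl3 averaged 0.0883 CPM in iPS-stage SSEA1pos cells and 99.6 CPM in MEFs, Rtl6 changed by -1.77 ± 0.25, and Rtl8c (-5.38 ± 0.67) and Rtl8b (-2.73 ± 0.38) are near-identical copies whose reads may be split uncertainly.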

How the data were processed

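The deposited files hold raw counts of reads per Ensembl gene, 1 file for each of 33 libraries, made by the authors from poly-A libraries of a strand-marking kit, per the labels' protocols. Per the submitters' processing notes, the build was mm9 and the tools were HTSeq 0.6.0, Picard 1.100 and STAR 2.3.0, with no roles stated and the annotation release not given in the sources used here. File names alone speak of counting without strand, so overlapping antisense RNAs such as Rtl1 and the transcripts opposite to it cannot be told apart. Reads in no annotated gene made up 4.42 to 15.51%, ambiguous reads 2.41 to 3.15% and reads with several alignments 14.95 to 27.24%, and stayed out of totals. Names, order and exon lengths came from GENCODE M21, which is of another build; symbols matched 32860 of 37583 IDs. The IDs of Rian and Mirg in that annotation matched no ID used here.

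Counts were fitted with edgeR 4.0.16 (R 4.3.3; glmQLFit and glmQLFTest, TMM, filterByExpr) in one model of 11 groups with 22 residual degrees of freedom, with p-values adjusted over 17326 genes; the fit was tested on simulated data. Standard errors were taken as log2 change over the root of the F statistic. DESeq2 1.42.0 size factors and Wald test, no low-count filter (27496 genes), a replicate block, and each library left out were alternatives. TMM left the median change of all genes at up to 0.26 (log2), and changes are relative to that scaling. Same-numbered libraries were judged paired where every pair's deviations from the group means correlated above 0.1, decided from the data. This held for the sort at days 3, 6, 9 and 12 (0.18 to 0.56). It also held for SSEA1pos cells of days 3, 6 and 12 against MEFs (0.11 to 0.23) and SSEA1neg cells of the iPS stage against day 12 (0.27 to 0.45). The main tests used no pairing, and the replicate block covered all 11 groups alike.

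All members are named. Other named genes are the 3 most correlated with a member over the 11 group means (predicted genes left out) and up to 4 genes of a list with the smallest p, of which 1 is not reported here. The members, lists and tests were chosen with earlier results of these data known.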

Additional observations from a re-analysis of the deposited data

Results flagged for a closer look

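Rtl1 was picked out because every library of one stage moved one way and every library of another stage the opposite way. In SSEA1pos against SSEA1neg cells its log2 change was 1.09 at day 9, with all libraries higher, and -0.32 at day 12, with all lower; the difference between the days was -1.41 ± 0.89 and was not called (edgeR adjusted p = 0.69). In SSEA1pos cells against MEFs it was 1.43 at day 9 and -1.54 at the iPS stage, and the iPS stage was below day 9 by a change of -2.97 ± 0.69 (adjusted p = 0.0011). In SSEA1neg cells against MEFs it was 0.43 at day 12 and -2.15 at day 3, and day 12 was above day 3 by 2.58 ± 0.68 (adjusted p = 0.005). These tests of the differences were added after seeing the data, and both pairs against MEFs share the MEF libraries. For the pairs against MEFs the pick itself already set the direction, so their tests give a size and cannot test that direction.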

How the results depend on the processing

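Of 90 member results, 36 kept their direction and their side of the threshold in every setting tried. DESeq2's size factors and its Wald test turned Meg3 against MEFs to -0.08 (SSEA1pos, day 6), -0.03 (SSEA1neg, day 9) and -0.02 (SSEA1neg, day 12). Without the low-count filter 6 calls were lost. The replicate block turned Meg3 in iPS-stage SSEA1neg cells against MEFs to 0.38 and gained a call for Meg3 between the iPS-stage fractions (-2.84, adjusted p = 0.02), where the numbers do not pair the libraries; beyond that and Dlk1 in day 6 SSEA1pos cells it changed no call of a member. Without replicate 1 in every group, chosen after seeing the data, 17 member results gained a call, 4 lost one and 7 turned: Meg3 between the day 9 fractions (0.38), Dlk1 in day 6 SSEA1pos cells against MEFs (0.05), Rtl1 in day 6 SSEA1neg cells (0.4), Meg3 in SSEA1neg cells of day 9 (-0.44) and day 12 (-0.53), Dlk1 from day 12 to the iPS stage in SSEA1neg cells (-0.62) and the change of the Rtl1 sort difference from day 12 to the iPS stage (0 after rounding). Leaving out 1 library at a time, results that changed sign ran, between the fractions, from -1.43 to 2.59 (Dlk1, day 6), -1.09 to 0.4 (Meg3, day 9) and -0.85 to 0.39 (Begain, day 12). In SSEA1pos cells against MEFs they ran from -0.5 to 0.6 (Meg3, day 6), -1.06 to 0.46 (Meg3, day 9), -0.13 to 0.17 (Rtl1, day 12) and -0.01 to 0.43 (Begain, iPS stage). In SSEA1neg cells against MEFs they ran from -0.9 to 0.3 (Rtl1, day 6), -0.52 to 0.46 (Meg3, day 9), -0.53 to 0.45 (Meg3, day 12), -0.02 to 1.17 (Dio3, day 12), -3.13 to 1.16 (Dlk1, iPS stage) and -1.33 to 0.02 (Meg3, iPS stage). From day 12 to the iPS stage they ran from -0.91 to 0.19 (Begain) and -0.39 to 0.41 (Dlk1) in SSEA1pos cells and -0.58 to 2.31 (Dlk1) in SSEA1neg cells, and for the change of the sort difference from -2.39 to 0.51 (Dlk1), -0.96 to 0.35 (Rtl1) and -0.01 to 1.48 (Dio3). Over all genes, calls between the day 3 fractions numbered 1155 and 531 to 1117 with 1 library left out, those from day 12 to the iPS stage 1645 and 871 to 1799 in SSEA1pos cells and 1250 and 478 to 1362 in SSEA1neg cells. The change of the sort difference had 321 calls, 645 with DESeq2's Wald test, 497 with the replicate block and 135 to 645 with 1 library left out; the cause was not tested. In day 3 SSEA1neg cells against MEFs 50.7% of calls were higher, and 39.9% with the Wald test; in day 3 SSEA1pos cells the shares were 48.3% and 37.6%. Dio3 at days 3 and 6 and the reads inside Rian and Mirg rest on few counts.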
